A study of Homo sapiens with 2 samples.

Results

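The genes described here are 10 receptor tyrosine kinases, EGFR, ERBB2, ERBB3, INSR, IGF1R, FLT3, KIT, FGFR1, MET and ROR1, out of 37122 genes in a table of RNA-seq read counts. The set was chosen because EGFR reads appear in the Ramos640 library, so the EGFR counts below are those selected on and are given as a description. The samples are cell lines. Ramos is a Burkitt's lymphoma (BL) cell line of B-cell origin, and Ramos640 is its derivative made resistant to complement-dependent killing by rituximab, an antibody against CD20. Ramos640 was raised in increasing rituximab in the presence of normal human serum, the source of complement, and both lines grew in the same medium. Resistance was kept up by rituximab and 20% serum every 21 days. The sample labels give the rituximab as 640 mg/mL, while the methods of the study give the final selecting concentration as 640 μg/mL. Ramos was not given rituximab in the labels' account, and Ramos640 is 1 derived line. RNA from 3 passages of each line was pooled before sequencing, so there was 1 library per line, 38030090 reads for Ramos and 30871826 for Ramos640. No difference below therefore has a replicate check, no p-value is given, and all intervals are 95% intervals that cover counting error only.

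Receptor tyrosine kinases sit in the cell membrane, bind a growth factor outside the cell, pair up and phosphorylate each other on tyrosines, to which adaptor proteins then dock to start the RAS, PI3K and phospholipase C pathways. EGFR, ERBB2 and ERBB3 form the ERBB family, in which ERBB2 has no known ligand of its own and ERBB3 is a poor kinase that signals through its partners. INSR and IGF1R bind insulin and the insulin-like growth factors. FLT3 and KIT are receptors of blood progenitors, and B-lineage precursors use FLT3. FGFR1 and MET, the receptors of fibroblast growth factors and of hepatocyte growth factor, are best known from epithelial and mesenchymal cells, and ROR1 is a receptor for WNT5A found on some B-cell malignancies. Mature B cells are not a usual site of EGFR expression. Both libraries carried the transcripts of B cells, and the 7 B-cell markers examined summed to 4114 reads per 1000000 reads (CPM) in Ramos and 4699 in Ramos640. The lowest of these counts was that of MS4A1, which encodes CD20, in Ramos640 (1904 reads, against 9654 in Ramos).

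The starts of EGFR, FLT3 and INSR are shown as examples of receptors with more reads (EGFR) and fewer reads (FLT3 and INSR) in Ramos640. Each sequence is the 250 bases before the start of the gene, 5′ to 3′ on the strand of the gene, from RefSeq on GRCh38.p14. Capitals mark the GC box, searched as GGGCGG on either strand, so that it may read CCGCCC, and overlapping matches run together. The windows are chr7:55018767-55019016 on the plus strand for EGFR, chr13:28100577-28100826 on the minus strand for FLT3 and chr19:7294415-7294664 on the minus strand for INSR.
EGFR: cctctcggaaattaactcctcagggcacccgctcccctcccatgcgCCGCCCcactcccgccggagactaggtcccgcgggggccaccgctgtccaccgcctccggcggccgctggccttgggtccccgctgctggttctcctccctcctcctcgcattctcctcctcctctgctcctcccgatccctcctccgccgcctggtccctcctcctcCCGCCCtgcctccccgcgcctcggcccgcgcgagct
FLT3: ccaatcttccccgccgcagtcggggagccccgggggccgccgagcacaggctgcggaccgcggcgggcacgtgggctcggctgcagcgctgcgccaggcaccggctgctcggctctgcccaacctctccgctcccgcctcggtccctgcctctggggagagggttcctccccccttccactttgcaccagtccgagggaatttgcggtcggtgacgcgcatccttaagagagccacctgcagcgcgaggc
INSR: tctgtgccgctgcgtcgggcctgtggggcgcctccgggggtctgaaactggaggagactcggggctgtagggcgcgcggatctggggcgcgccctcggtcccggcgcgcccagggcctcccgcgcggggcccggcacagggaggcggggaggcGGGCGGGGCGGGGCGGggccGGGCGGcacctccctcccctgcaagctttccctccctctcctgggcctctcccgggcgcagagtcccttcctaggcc
The EGFR window held 2 GC boxes and 25 CpG dinucleotides, the FLT3 window 0 and 26, and the INSR window 4 and 28. A GC box was found in 42.6% of the 35116 windows of the same length in the table, whose median CpG count was 11. TATAAA, searched on both strands, was in none of these 3 windows and in 10.7% of all windows. EGFR has a further start in the table (chr7:55109589-55109838), with 0 GC boxes, 1 CpG and a match to TATAAA. The counts are per gene and do not tell which start was used.

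EGFR, the receptor for epidermal growth factor, was counted 5 times in Ramos and 140 times in Ramos640. Scaled to the size of the libraries (median-of-ratios factors of 1.14 and 0.876), this was 4.38 and 160 normalized reads, a 36.5-fold higher level in Ramos640 with an interval from 15.3-fold to 114-fold. A gene at the Ramos640 level of EGFR would have had 182 reads in Ramos. On the log2 scale with 1 added to each normalized count, the fold change was 4.90 (interval from 3.93 to 6.83). Of the 18778 genes that reached 10 reads over both libraries, 17 had a larger log2 fold change. Per length and depth the level remained low in both lines, at 0.00825 RPKM (reads per kilobase of exon per 1000000 reads) in Ramos (interval from 0.00268 to 0.0192) and 0.284 RPKM in Ramos640 (from 0.239 to 0.336). EGFR lies on chromosome 7 of GRCh37 from 55086710 to 55279321 on the plus strand, and an antisense transcript, EGFR-AS1, lies inside it. EGFR-AS1 was not analysed here and the use of strand in counting is not given in the sources used here, so reads of the pair cannot be told apart.

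EGFR is best known from epithelial cells, whose markers were examined. Of 8 epithelial markers, 4 had 3 or fewer reads in both libraries. EPCAM had 0 reads in Ramos and 1 in Ramos640, and CDH1, which encodes E-cadherin, had 1 and 0. KRT8 had 18 and 3 reads, KRT18 had 19 and 11, and KRT19 had 5 and 1. SFN, the most read of the list, was higher in Ramos640 (36 and 60 reads, log2 fold change 1.09). Per length, SFN lay at 0.724 RPKM in Ramos and 1.49 RPKM in Ramos640, above EGFR in both. Summed over the list, the level was 2.13 CPM in Ramos and 2.46 in Ramos640, and its part in the EGFR counts was not tested. The 5 T-cell markers summed to 19 reads in Ramos and 35 in Ramos640. CD3E had 1 and 31 reads, NKG7 had 13 and 3, CD3G had 5 and 1, and CD3D and CD8A had none in either library.

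The 3 genes with the log2 fold change nearest to that of EGFR, among 3010 genes with 0.5 to 2 times its reads, were ST3GAL6 (5 and 138 reads, 4.88), MTUS1 (3 and 86 reads, 4.77) and CCDC85A (5 and 125 reads, 4.74). With 2 libraries, likeness is a single difference per gene.

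**Figure D1:**
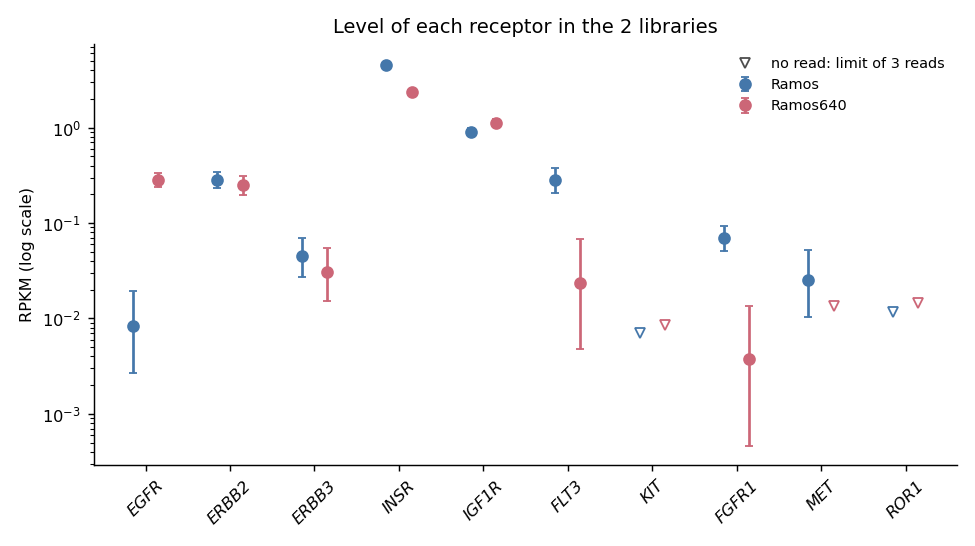
RPKM of the 10 receptors on a log axis in the Ramos library (blue) and the Ramos640 library (red), with exact Poisson 95% intervals as bars and open triangles at the level of 3 reads where no read was counted. EGFR went from 0.00825 to 0.284 RPKM, FLT3 and FGFR1 lay far lower in Ramos640, and INSR and IGF1R were the highest in both libraries.

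ERBB2 and ERBB3, the partners of EGFR, had intervals of the fold change that included 0. ERBB2 had 111 reads in Ramos and 80 in Ramos640, or 0.283 and 0.251 RPKM, and its log2 fold change was -0.09 with an interval from -0.52 to 0.34. ERBB2 lies on chromosome 17 from 37844167 to 37886679 and overlaps PGAP3 and MIEN1 on the opposite strand. PGAP3 had 99 and 188 reads and MIEN1 had 1586 and 1385, and reads in the overlap may have been assigned to either gene. ERBB3, with 20 and 11 reads, had a log2 fold change of -0.45 (interval from -1.69 to 0.65), which spans levels from 3.23-fold lower to 1.57-fold higher in Ramos640. ERBB4, the last receptor of the family and not among the 10, had no reads in either library.

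The makeup of the ERBB reads needs no scaling between the libraries. EGFR held 5 of 136 reads of EGFR, ERBB2 and ERBB3 in Ramos, or 3.68% (exact binomial interval from 1.20% to 8.37%), and 140 of 231 in Ramos640, or 60.6% (from 54.0% to 67.0%). ERBB2 held 81.6% of them in Ramos and 34.6% in Ramos640. Both shares are of totals that contain the EGFR reads selected on, so they describe the same counts again. Per length, EGFR (0.284 RPKM) and ERBB2 (0.251 RPKM) had overlapping intervals in Ramos640, whereas in Ramos ERBB2 lay above EGFR with intervals apart.

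INSR and IGF1R, which are close relatives, carried most of the reads of the 10 receptors and differed in opposite directions. The insulin receptor gene INSR had 1868 reads in Ramos and 796 in Ramos640. Its level was 1.80-fold lower in Ramos640 (interval from 1.66-fold to 1.96-fold, log2 fold change -0.85), at 4.54 RPKM in Ramos and 2.38 RPKM in Ramos640. IGF1R had 475 and 485 reads and was 1.33-fold higher (interval from 1.17-fold to 1.51-fold, log2 fold change 0.41), at 0.896 and 1.13 RPKM. INSR was therefore the highest of the 10 in both libraries and IGF1R the next, each with intervals apart from the receptor below it. The RPKM of INSR was 5.06 times that of IGF1R in Ramos and 2.11 times in Ramos640. INSR held 79.7% of the reads of the pair in Ramos (exact binomial interval from 78.0% to 81.3%) and 62.1% in Ramos640 (from 59.4% to 64.8%), a difference that does not depend on the scaling. INSR lies on chromosome 19 from 7112266 to 7294425 and IGF1R on chromosome 15 from 99191768 to 99507759. The related receptor INSRR had 0 and 2 reads.

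FLT3 and FGFR1 had 3 or fewer reads in Ramos640. For FLT3, the receptor of FLT3 ligand, 45 reads were counted in Ramos and 3 in Ramos640, an 11.5-fold lower level with an interval from 3.70-fold to 57.9-fold. At the Ramos level of FLT3, 34.6 reads would have been counted in Ramos640. FLT3 lay at 0.285 RPKM in Ramos, with an interval that overlapped that of ERBB2 (0.283 RPKM), and at 0.0234 RPKM in Ramos640, where its interval from 0.00482 to 0.0683 overlapped those of ERBB3 above it and FGFR1 below it. With the longest transcript as length, FLT3 had 0.309 and ERBB2 0.592 RPKM in Ramos, with intervals apart.

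FGFR1 had 46 and 2 reads, a 17.7-fold lower level (interval from 4.62-fold to 150-fold), or 0.0703 and 0.00377 RPKM, where 35.3 reads would have been counted in Ramos640 at the Ramos level. FGFR1 lies on chromosome 8 from 38257733 to 38326352 and overlaps LETM2 on the opposite strand, which had 94 and 87 reads. It also overlaps RPS20P22, a processed pseudogene on the same strand, which had 9 and 6 reads. FLT3 lies on chromosome 13 from 28577411 to 28674729. Both genes were read at most 46 times even in Ramos, and the size of each difference is known only within the wide intervals above.

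KIT, MET and ROR1 were at or near the limit of detection. KIT and ROR1 had no reads in either library. With no read seen, a level worth up to 3 reads is still possible, and for KIT this was 0.00696 RPKM in Ramos and 0.00858 RPKM in Ramos640. For ROR1 these limits were 0.0117 and 0.0145 RPKM. CFL1P3, a processed pseudogene on the opposite strand within ROR1, had 96 and 108 reads. MET had 7 reads in Ramos and 0 in Ramos640. With Ramos640 set at the floor of 3 reads, MET was at least 1.79-fold lower, without the counting error of the 7 reads in Ramos, and the exact interval of its fold began at 1.11-fold lower. At the Ramos level, 5.38 reads would have been counted in Ramos640.

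Of the 10 receptors, 7 had at least 10 reads, and 3, KIT, MET and ROR1, did not. Past 1.5-fold, the fold part of the study's criterion, 1 of the 7 was higher in Ramos640 (EGFR) and 3 were lower (INSR, FLT3 and FGFR1). The study also set a limit on the false discovery rate, which was not applied here. Over all 18778 genes with at least 10 reads, 14.6% were higher in Ramos640 past 1.5-fold and 17.3% lower. The counting interval lay above 0 for EGFR and IGF1R and below 0 for INSR, FLT3 and FGFR1, while 29.6% of all genes had an interval above 0 and 31.6% below 0. The median log2 fold change of the 7 receptors was -0.45, against -0.015 over all genes. Low genes pass a fold more often, and 5 of the 7 receptors had fewer than 200 reads. Over the 6601 genes in this range of reads, 25.4% lay past 1.5-fold upwards and 28.3% downwards. The 7 passed the minimum by the sum of both libraries, so a receptor with nearly all its reads in 1 line had to differ, and these counts are a description of the 10 genes only.

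**Figure D2:**
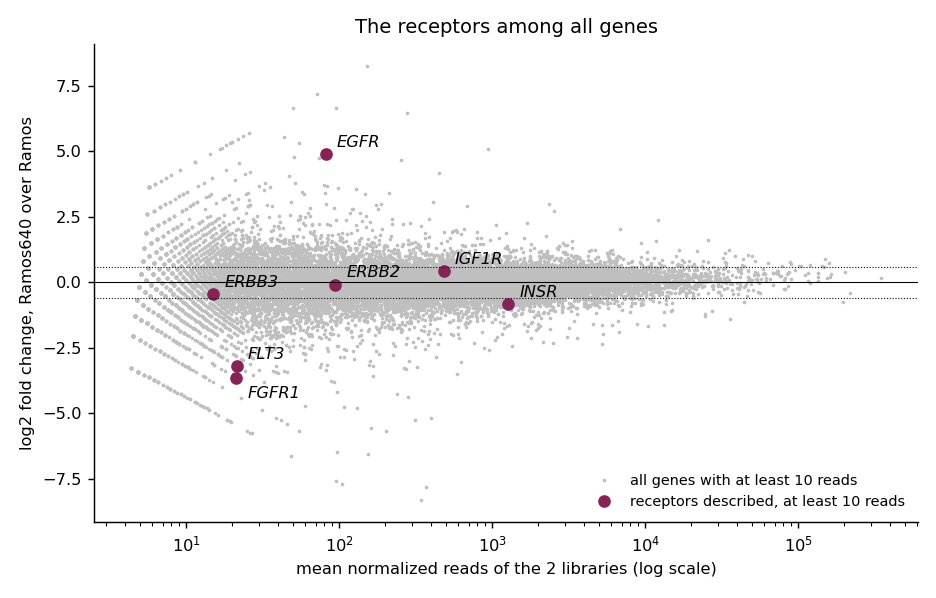
Log2 fold change of Ramos640 over Ramos against mean normalized reads (log axis) for the 18778 genes with at least 10 reads (grey) and the 7 receptors among them (purple), with dotted lines at 1.5-fold. EGFR lies at 4.90 with 17 genes of all above it, FLT3 (-3.19) and FGFR1 (-3.65) lie near the lower edge, and ERBB2 (-0.09) lies in the bulk.

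The wider family gives the setting. All 58 human receptor tyrosine kinases have a row in the table, 19 had no reads in either library and 23 had at least 10 reads. Of these 23, 7 were higher and 9 were lower past 1.5-fold, and their median log2 fold change was -0.19. Intervals were off 0 for 5 of the 7 and 7 of the 9, the exceptions being CSF1R, DDR2, FLT1 and PTK7. The shares over all genes were 14.6% higher and 17.3% lower. Of the 23, 17 had fewer than 200 reads, a range in which 25.4% of all genes were higher and 28.3% lower. Without the 10 receptors, 6 of 16 were higher and 6 were lower, with a median of 0.0073, and 12 of the 16 had fewer than 200 reads. The highest count among the others was that of LMTK2, a membrane kinase with 783 and 981 reads (0.71), followed by the collagen receptor gene DDR1 with 603 and 615 (0.41). RYK, a Wnt co-receptor with 51 and 81 reads (1.03), was also higher. For ROR2, the relative of ROR1 and likewise a receptor for WNT5A, there were 48 reads in Ramos and 94 in Ramos640, a 2.55-fold higher level (log2 fold change 1.33, interval from 0.83 to 1.88). EPHB6, an ephrin receptor without kinase activity, had 6 and 18 reads (1.78), and EPHB4, another ephrin receptor, had 154 and 136 with an interval that included 0 (0.20). The other direction was led by STYK1, with 87 reads in Ramos and 1 in Ramos640 (66.8-fold lower, interval from 11.7-fold to 2669-fold). LTK had 16 and 1 reads (12.3-fold lower, interval from 1.91-fold to 515-fold). LMTK3 had 222 and 86 reads (-0.98). PDGFRA, a receptor of platelet-derived growth factor, had 16 and 3 reads (-1.76, interval from -4.45 to -0.23).

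By the account of the study's authors, midostaurin, the kinase inhibitor they used, and its metabolites also inhibit receptors including FLT3, KIT, PDGFR and VEGFR2. PDGFR was taken here as the genes PDGFRA and PDGFRB, and VEGFR2 as KDR. KIT and KDR were without reads in both libraries, and PDGFRB had 6 and 3. FLT3 and PDGFRA were the members of this group with at least 10 reads, and both had 3 reads in Ramos640.

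**Figure D3:**
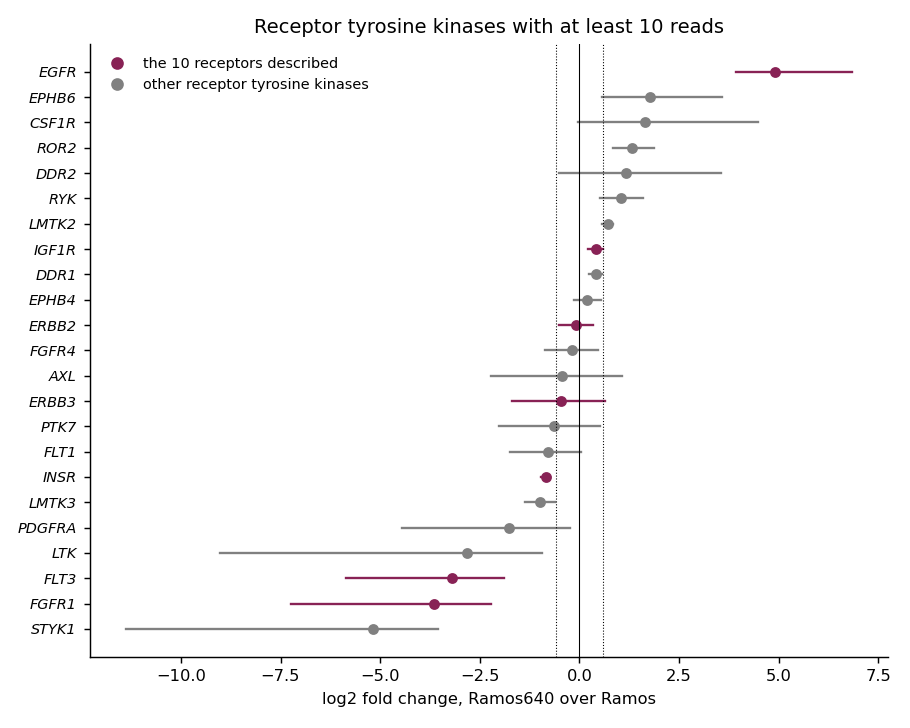
Log2 fold change of Ramos640 over Ramos (points) with 95% counting intervals (lines) for the 23 receptor tyrosine kinases with at least 10 reads, the 7 described here in purple and the others in grey, with dotted lines at 1.5-fold. EGFR lies highest at 4.90, and STYK1 (-5.17), FGFR1 (-3.65) and FLT3 (-3.19) lie lowest with wide intervals.

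Few ligands of the 10 receptors were read. Of 21 ligand genes, 13 had no reads in either library, among them EGF, TGFA, AREG, INS, IGF1, IGF2, KITLG and HGF, and 6 had at least 10 reads. HBEGF, a membrane-bound ligand of EGFR, had the most, with 1136 reads in Ramos and 482 in Ramos640. Its level in Ramos640 was 1.81-fold lower (log2 fold change -0.85, with -1.01 and -0.70 as bounds), at 9.99 and 5.22 RPKM. On both libraries' values its level lay above that of EGFR on the RPKM scale. FLT3LG, the ligand of FLT3, had 305 and 266 reads, and its interval included 0 (0.18, from -0.059 to 0.43). NRG1, a ligand of ERBB3, had 1 and 9 reads (log2 fold change 2.59, interval from 0.70 to 9.0). NRG4, which the list holds although it is a ligand of ERBB4, had 21 and 6 reads (-1.31, from -3.02 to -0.069). EREG, a ligand of EGFR, and FGF2, a ligand of FGFR1, each had 10 and 2 reads, with intervals that included 0. WNT5A had 3 and 1 reads. Past 1.5-fold, 1 ligand was higher (NRG1) and 4 were lower, of which HBEGF and NRG4 had intervals off 0, and the median over the 6 was -1.08. The shares over all genes were 14.6% and 17.3%, and 25.4% and 28.3% under 200 reads, where 4 of the 6 lay.

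The genes that release or bind ligands were mixed. ADAM10 and ADAM17, the proteases that shed ERBB ligands from the membrane, had 2010 and 1507 reads and 1936 and 1323 reads. The log2 fold change of ADAM17 was -0.17, which became 0.14 once the trend over GC content was removed, and that of ADAM10 moved from -0.034 to 0.29. IGF2R, which binds and removes IGF2, had 3311 and 3236 reads (0.35). Of the secreted binding proteins of insulin-like growth factors, 5 had at least 10 reads, all of them under 200. Past 1.5-fold, 4 were lower in Ramos640, against 28.3% of all genes in this range of reads, and 3 of these had intervals below 0. IGFBP6 (13 and 5 reads) had an interval that included 0, and IGFBP7 had 15 and 12 reads (0.055). IGFBP5 had 91 and 12 reads (5.82-fold lower, log2 fold change -2.46) and IGFBP3 had 105 and 28 (2.88-fold lower, -1.50).

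FGFR1 and MET are best known from epithelial and mesenchymal cells, and fibroblast markers were examined as well. Of 6 fibroblast markers, 4 reached 10 reads, and each of the 4 had a lower level in Ramos640. COL1A1 had 651 reads in Ramos and 192 in Ramos640, COL1A2 had 466 and 162, and COL3A1 had 166 and 40. The summed level of the list was 34.2 CPM in Ramos against 13.0 CPM in Ramos640 (log2 fold change -1.32). DCN had 13 and 1 reads, and LUM had 0 and 3. The part of other cells in the counts of FGFR1 and MET was not tested. In pooled bulk RNA, fewer cells with a transcript and less transcript per cell cannot be told apart. The 7 myeloid markers summed to 0.526 and 0.551 CPM, and LYZ, CD14 and MPO had 3 or fewer reads in each library. The 2 with at least 10 reads differed in opposite directions, with intervals that included 0. S100A8 had 13 and 4 reads (-1.15), and CSF1R had 3 and 9 (1.64).

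Inside the cell, most adaptors and effectors that dock at the receptors were well read. Of 34 genes, 31 had at least 10 reads, and 24 of them lay within 1.5-fold. Past it, 6.45% of the 31 were higher and 16.1% lower, against 14.6% and 17.3% of all genes. Among all genes with 200 reads or more, 8.66% were higher and 11.3% lower, and 4 of the 31 had fewer reads. GRB2, the adaptor that links receptors to RAS activation, had 12169 and 11502 reads, and PLCG2, the B-cell form of phospholipase C gamma, had 22813 and 16188. HRAS (1155 and 1485 reads, 0.74) and IRS1, the docking protein of INSR and IGF1R (1072 and 1281 reads, 0.64), were the 2 genes higher past 1.5-fold. With total counts 1 gene and with the GC trend removed 0 genes were higher, beside 5 and 6 lower genes. The 5 lower genes were SOS2, an activator of RAS (1134 and 454 reads, -0.94), GAB2 (79 and 37, -0.70), and STAT5A, IRS2 and GRB7, the last 3 of which are named after their values were seen. IRS2 had 64 and 17 reads (-1.48), so the docking proteins IRS1 and IRS2 differed in opposite directions. STAT5A had 1336 and 683 reads (-0.59) and GRB7 had 27 and 9 (-1.13). The median over the 31 genes was -0.15.

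Of the genes that restrain or remove receptors, 18 had at least 10 reads. Past 1.5-fold, 7 of them were lower in Ramos640, all 7 with intervals below 0, against 17.3% of all genes. Among all genes with 200 reads or more, 8.66% were higher and 11.3% lower, and 4 of the 18 had fewer reads. PTPRF, with 4 and 7 reads, was the 1 gene past 1.5-fold upwards (14.6% of all genes), with an interval that included 0, and the median log2 fold change was -0.41. CBL and CBLB, ubiquitin ligases that send activated receptors to degradation, had 2210 and 1077 reads (-0.66, interval from -0.76 to -0.55) and 251 and 105 reads (-0.87). NEDD4, another ubiquitin ligase, had 389 and 172 reads (-0.79), and SOCS5, which promotes the degradation of EGFR, had 417 and 185 (-0.79). With the GC trend removed, 5 genes were lower, and CBLB (-0.63) and CBL (-0.62) remained past 1.5-fold while SOCS5 (-0.47) and NEDD4 (-0.47) did not. ERRFI1, a feedback inhibitor of EGFR, had 29 and 17 reads (-0.37), and LRIG1, which also lowers ERBB receptors, had 6787 and 4702 (-0.15).

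**Figure D4:**
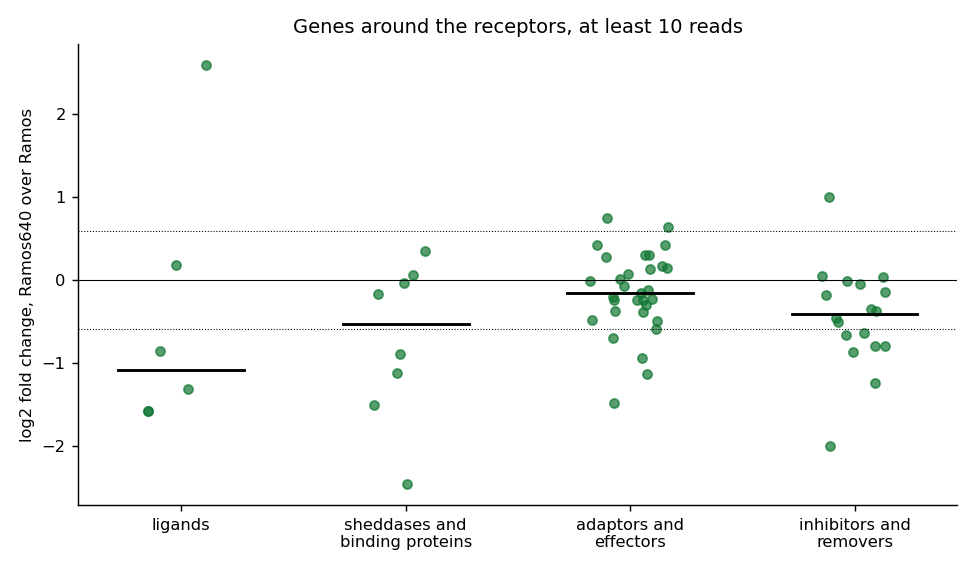
Log2 fold change of Ramos640 over Ramos for each gene with at least 10 reads (points) in the lists of ligands, sheddases and binding proteins, adaptors and effectors, and inhibitors and removers, with the median of each list as a black bar and dotted lines at 1.5-fold. The medians were -1.08, -0.53, -0.15 and -0.41, and the adaptors lay closest to 0.

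The genes around the receptors were taken as the 10 nearest protein-coding genes with at least 100 reads on each side, whose reach differed between the sides. For EGFR, the median log2 fold change of these 20 genes was 0.16. Past 1.5-fold, 3 of the 20 were higher and 2 lower. The shares were 14.6% and 17.3% from 10 reads upwards, and 8.66% and 11.3% among all genes with 200 reads or more. Neither pair of shares was matched to the choice of neighbours, which left out genes under 100 reads, for EGFR or for the receptors below. The nearest of the 20 on the left, SEC61G, had 5956 and 4705 reads (0.041), and LANCL2, the nearest on the right, had 479 and 651 (0.82). The median was 0.10 around INSR, -0.11 around FLT3 and -0.070 around FGFR1. Past 1.5-fold, 4 were higher and 2 lower around INSR, 1 and 4 around FLT3, and 0 and 2 around FGFR1. A low value among the neighbours of FGFR1 was that of RAB11FIP1 (-3.02), named after its value was seen. The nearest such genes were ZNF557 (0.55) and ARHGEF18 (-0.21) for INSR, POLR1D (0.17) and PAN3 (-0.37) for FLT3, and LETM2 (0.27) and TACC1 (-0.18) for FGFR1.

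Around the other receptors the medians of the neighbours ran from -0.30 for MET to 0.22 for ERBB2. The nearest genes with at least 100 reads can lie beyond genes with fewer, as for KIT, where PDGFRA and KDR lie nearer. They were GPR85 (25 reads in Ramos and 143 in Ramos640, 2.84) and CAPZA2 (-0.67) for MET, CHIC2 (0.33) and SRD5A3 (1.17) for KIT, and PGM1 (0.25) and RAVER2 (0.46) for ROR1. For ERBB3 they were RPS26 (-0.040) and PA2G4 (0.82), and for IGF1R MCTP2 (-0.27) and TTC23 (0.043).

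**Figure D5:**
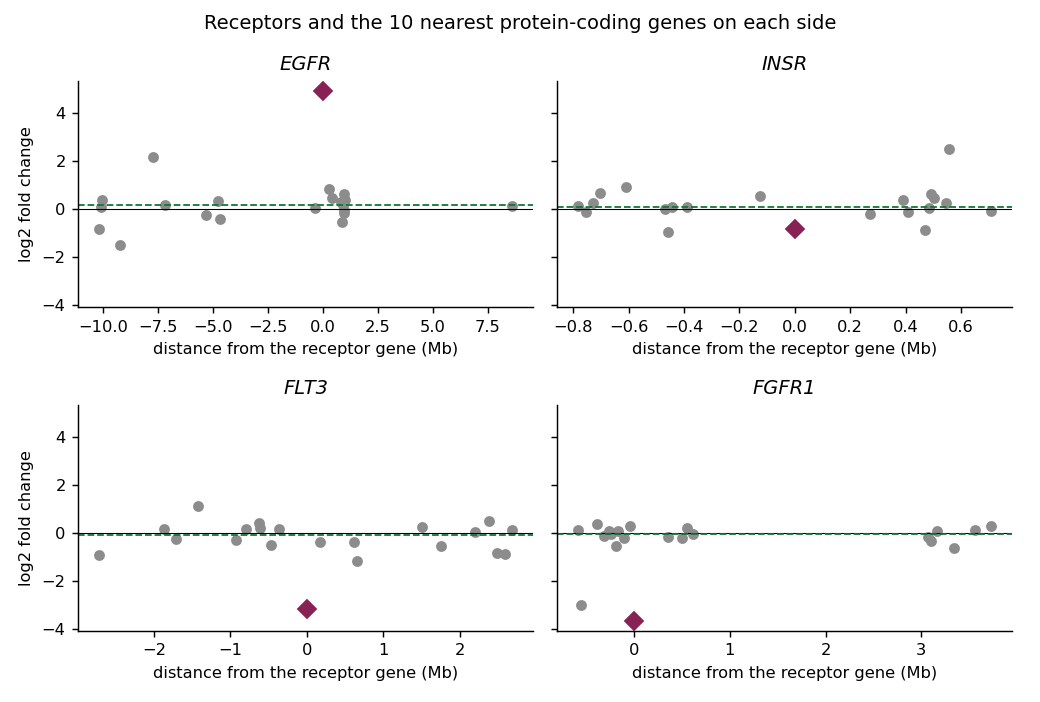
Log2 fold change of Ramos640 over Ramos for EGFR, INSR, FLT3 and FGFR1 (purple diamonds) and for the 10 nearest protein-coding genes with at least 100 reads on each side (grey points) against distance in megabases, with the median of the neighbours as a dashed green line. EGFR (4.90) lies above all its neighbours, and FLT3 (-3.19) and FGFR1 (-3.65) lie below all of theirs.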

How the data were processed

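Ion Proton reads of 2 libraries were processed by the authors, who removed adaptors, aligned the reads to GRCh37 with MapSplice (version 2.1.6) and deposited whole-number read counts per gene without normalization. The counting program, its annotation and its use of strand are not given in the sources used here. The library totals set the precision. Median-of-ratios size factors followed the study's use of DEseq. Log2 fold changes used a pseudocount of 1, a gene counted with at least 10 reads, and intervals were exact Clopper-Pearson (shares and folds) or Poisson (RPKM). With 1 library per line no dispersion can be estimated, so no test was run. Alternatives were edgeR (version 4.0.16) TMM factors, total counts, pseudocounts of 0.1 and 10, minimums of 1 and 100 reads, a 2-fold criterion, removal of a running median over GC content (501 genes) and the longest transcript as length. GC content was known for 84.1% of the genes with at least 10 reads. Exon lengths and positions came from GENCODE v44lift37. Symbols in current use matched 26511 rows, and older symbols a further 2282. The steps were checked on simulated counts.

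The 10 members and all lists were chosen with earlier results of these data known. The genes named are the 10 members, other receptor tyrosine kinases with at least 100 reads or past 1.5-fold with an interval off 0, ligands with at least 10 reads, the 4 largest changes of each other list among genes with at least 100 reads, overlapping genes, the nearest genes with at least 100 reads on each side, and the 3 genes nearest to EGFR in log2 fold change. Further genes are named as examples of the lists.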

Additional observations from a re-analysis of the deposited data

How the results depend on the processing

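No called log2 fold change of a named gene changed sign under any alternative run. That of EGFR was 4.83 to 5.16 under 4 alternatives and 3.56 with a pseudocount of 10, which draws low counts together by construction. Of the members, 1 was higher past the criterion in every alternative run. The 3 lower members became 4 with a minimum of 1 read, which lets in MET, 2 at 2-fold, which INSR does not reach, and 1 with at least 100 reads, which FLT3 and FGFR1 do not have. For the 58 receptor tyrosine kinases (7 higher, 9 lower), a minimum of 1 read gave 15 and 16, a minimum of 100 reads gave 4 and 2, and a 2-fold criterion gave 5 lower. For ligands (1 and 4), the 1-read minimum gave 2 higher and the 100-read minimum 0 higher and 1 lower. The latter gave 2 lower genes among sheddases and binding proteins (4) and 3 lower among adaptors (5). Higher adaptors (2) came to 1 with total counts, 0 with the GC trend removed and 0 at 2-fold, where 2 were lower. For inhibitors (1 and 7), the higher gene was lost with a pseudocount of 10, at 100 reads and at 2-fold (0 each), a minimum of 1 read gave 2, and 2 were lower at 2-fold. For changes with the GC trend removed the cause was not tested. With the longest transcript as length, EGFR had 0.458 RPKM and ERBB2 0.526 RPKM in Ramos640, which turns their order with intervals that still overlap, and ERBB2 lay above FLT3 in Ramos with intervals apart. Depth gives no fold for KIT and ROR1, and wide intervals for ERBB3, FLT3, FGFR1 and MET. No paired analysis was possible because each line has 1 library.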
